A study of Homo sapiens with 60 samples.

Results

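The NR4A group of orphan nuclear receptors has 3 genes, NR4A1, NR4A2 and NR4A3, and all 3 were found by symbol among the 60675 genes of the deposited expected-count table and passed the filter on low counts. They were chosen for their values: NR4A1 and NR4A3 were among the lowest genes of cells given Menthae Herba at 500 µg/mL, against vehicle and against 20 µg/mL, and NR4A3 was low with Saposhnikoviae Radix in the same comparisons. These values are therefore given as a description, with no test, and so are all comparisons of the 3 genes with the vehicle libraries, which those contrasts share. Tests on the 3 genes are given only for extracts outside the contrasts that picked them, while other genes of the pathway are tested in every comparison. Earlier results of these data were known when the genes and the lists were chosen, so these tests are not fully independent of that choice.

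RNA was sequenced from the lung adenocarcinoma line A549, of human origin, after 24 h with hot-water extracts of plants or with vehicle. The vehicle group had 3 libraries (0.1% DMSO in the sample labels, 2% in the description of the series). The 2 single herbs Menthae Herba (mint) and Saposhnikoviae Radix, and the 4 multi-herb decoctions Okbyeongpung-san, Soyo-san, Guibi-tang and Saengmaek-san, each had 3 libraries at 500, 100 and 20 µg/mL. Another decoction, Soshiho-tang, had 1 library per dose. The description of the series says that extracts toxic below 500 µg/mL were given at lower concentrations, while the labels print 500, 100 and 20 for every extract, so doses are those of the labels. Nothing in the labels says that the 3 libraries of a group were grown as separate cultures, and p-values then measure only a spread between samples that may be technical.

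Library totals ran from 18330592 to 35308791 counts. Counts of mitochondrially encoded genes stepped up along the library order, from 10.7 to 13.9% of a library in the first 31 libraries to 12.9 to 22.2% in the last 29. Vehicle and both herbs lay before the step and Soyo-san, Okbyeongpung-san and Soshiho-tang after it. Saengmaek-san and Guibi-tang lay on both sides. For Soyo-san and Okbyeongpung-san the step and the difference from vehicle therefore cannot be told apart, whereas doses of 1 of these extracts share a side. Library names begin with a label, the library-name set, and that of vehicle (B1) is shared by no extract. What the label stands for is not said, so for every extract the set and the difference from vehicle cannot be told apart. The epithelial keratin gene KRT8 (2657 to 3639 CPM, counts scaled to the library total) and the aldehyde dehydrogenase gene ALDH1A1 (4575 to 6546 CPM), both abundant in A549 cells, were high in every library. EPCAM, another epithelial gene, was low (median 4.59 CPM). Of 10 markers of other cell types, the leukocyte, T cell, endothelial, fibroblast and red cell genes PTPRC, CD3E, VWF, DCN and HBB had a median of 0 CPM. The endothelial gene PECAM1 (0.0444 CPM), the myeloid genes CD14 (2.46 CPM) and CD68 (11 CPM) and the collagen genes COL3A1 (5.08 CPM) and COL1A1 (31.7 CPM) had medians above 0.

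NR4A proteins are transcription factors of the nuclear receptor family that have no known hormone filling their ligand pocket, so their activity follows mainly from how much is made. They bind DNA as monomers at the NBRE element, as dimers, or with the retinoid X receptors. Their genes are immediate early genes: growth factors, cAMP, calcium and stress raise their transcription within minutes, in good part through CREB at CRE elements of the promoter and through MEF2 and SRF, and the transcripts decay quickly. NR4A1 (Nur77) is also known for moving to mitochondria in dying cells, NR4A2 (Nurr1) for dopamine neuron development and NR4A3 (NOR1) for vascular and blood cell growth.

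The genes lie on 3 chromosomes in GENCODE 29 on GRCh38. NR4A1 (ENSG00000123358) spans chr12:52022832-52059507 on the plus strand, NR4A2 (ENSG00000153234) chr2:156324432-156342348 on the minus strand and NR4A3 (ENSG00000119508) chr9:99821855-99866891 on the plus strand. An antisense gene, NR4A1AS, overlaps the 3′ end of NR4A1, and the strand setting of the counting is not given in the sources used here, so reads of the 2 genes cannot be told apart. NR4A1AS itself held 0 to 25 counts per library. The RefSeq promoter table (GRCh38.p14, 250 bases before to 50 after each start) held 1 start of NR4A3 and 2 starts of NR4A1. The bases upstream of the GENCODE gene start are shown for both, since NR4A1 and NR4A3 were low in the same groups, at chr9:99821635-99821854 for NR4A3 and chr12:52022582-52022831 for NR4A1, both on the plus strand. Capitals mark the core of the CREB element on either strand, TGACG or CGTCA.

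NR4A3: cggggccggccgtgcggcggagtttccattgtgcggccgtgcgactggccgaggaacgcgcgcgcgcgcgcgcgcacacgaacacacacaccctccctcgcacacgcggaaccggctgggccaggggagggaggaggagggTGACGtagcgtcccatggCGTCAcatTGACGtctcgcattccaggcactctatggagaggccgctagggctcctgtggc

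NR4A1: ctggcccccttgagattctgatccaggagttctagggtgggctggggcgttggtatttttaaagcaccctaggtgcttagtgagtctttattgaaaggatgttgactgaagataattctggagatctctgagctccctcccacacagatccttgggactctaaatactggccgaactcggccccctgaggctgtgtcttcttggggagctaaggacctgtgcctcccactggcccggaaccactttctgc

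The printed NR4A3 stretch is 70.0% G or C and holds 3 of these cores, 109, 91 and 83 bases before the RefSeq start, and the full 300-base window holds another at 25 bases before it. Of 35116 RefSeq promoters of that length, 24.6% held at least 1 core on either strand, 1.40% at least 3 and 0.313% at least 4. The NR4A1 stretch is 53.2% G or C and holds 0, as does the window of the other listed NR4A1 start (chr12:52037465-52037764). NR4A1 was not searched beyond these windows, so nothing is said of cores elsewhere in the gene. Neither the full element TGACGTCA (1.85% of promoters) nor the NBRE, AAAGGTCA (1.22%), both searched on both strands, was in any of these 3 windows. The TGACG core is part of TGACGTCA, so the 2 counts overlap. A match is a run of letters and not a measured site, and which NR4A1 start these cells use was not determined.

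NR4A1 was the most abundant of the 3. Divided by exon length (the union of annotated exons), its mean in vehicle was 8.20 CPM per kb, against 1.43 for NR4A3 and 1.08 for NR4A2. In counts per library NR4A1 had 273 to 1124, NR4A3 91 to 317 and NR4A2 53 to 161, so that NR4A2 was the least precisely measured.

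NR4A1 stood at 34.2, 31.8 and 33.6 CPM in the 3 vehicle libraries. With Menthae Herba it was 11.7, 13.6 and 14.9 CPM at 500 µg/mL, 26.7, 26.6 and 27.3 CPM at 100, and 32.2, 33.7 and 36.0 CPM at 20. All libraries at 500 lay under all at 100, and all at 100 under all at 20 and all vehicle libraries. The log2 fold change was −1.36 ± 0.0920 (SE, 3 libraries against 3) for 500 against 20 and −1.35 ± 0.0908 for 500 against vehicle, a fold of 0.390 and 0.392. Of 17256 genes tested, NR4A1 was number 75 from the lowest against 20 and 76 against vehicle. At 100 the change against 20 was −0.35 ± 0.0842.

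NR4A3 followed the same steps with Menthae Herba. Vehicle libraries held 9.33, 8.98 and 8.80 CPM, and those with Menthae Herba 4.38, 4.38 and 4.45 CPM at 500, 6.17, 7.21 and 7.61 CPM at 100, and 7.63, 9.33 and 8.89 CPM at 20. The 3 doses did not overlap, although the highest library at 100 and the lowest at 20 differed by little. The change was −0.98 ± 0.0777 for 500 against 20 (number 138 from the lowest) and −1.08 ± 0.0756 against vehicle (number 124). Its 3 libraries at 500 had an SD of 0.0435 CPM where counting 100.0 reads on average gives 0.441 CPM. Each NR4A3 SE comes from a spread over all 57 libraries of the fit, which was narrower than counting alone gives. The SEs and intervals of NR4A3 therefore understate the error in every comparison.

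NR4A2 moved less. It stood at 4.17, 4.19 and 3.87 CPM in vehicle and at 3.14, 3.31 and 3.18 CPM with Menthae Herba at 500, 4.49, 4.31 and 4.14 CPM at 100, and 4.40, 5.67 and 5.43 CPM at 20. The libraries at 500 lay under all others, while those at 20 lay above vehicle and overlapped those at 100. The change was −0.70 ± 0.155 for 500 against 20 and −0.39 ± 0.155 against vehicle, and the level at 20 was itself above vehicle. Over all genes tested, 9.23% had all 3 Menthae Herba libraries at 500 below all 3 at 20, and 1.54% were lower at an adjusted p under 0.05 (edgeR). Against vehicle the corresponding shares were 10.7 and 3.43%. These contrasts chose the genes, so nothing is read from the shares.

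**Figure D1:**
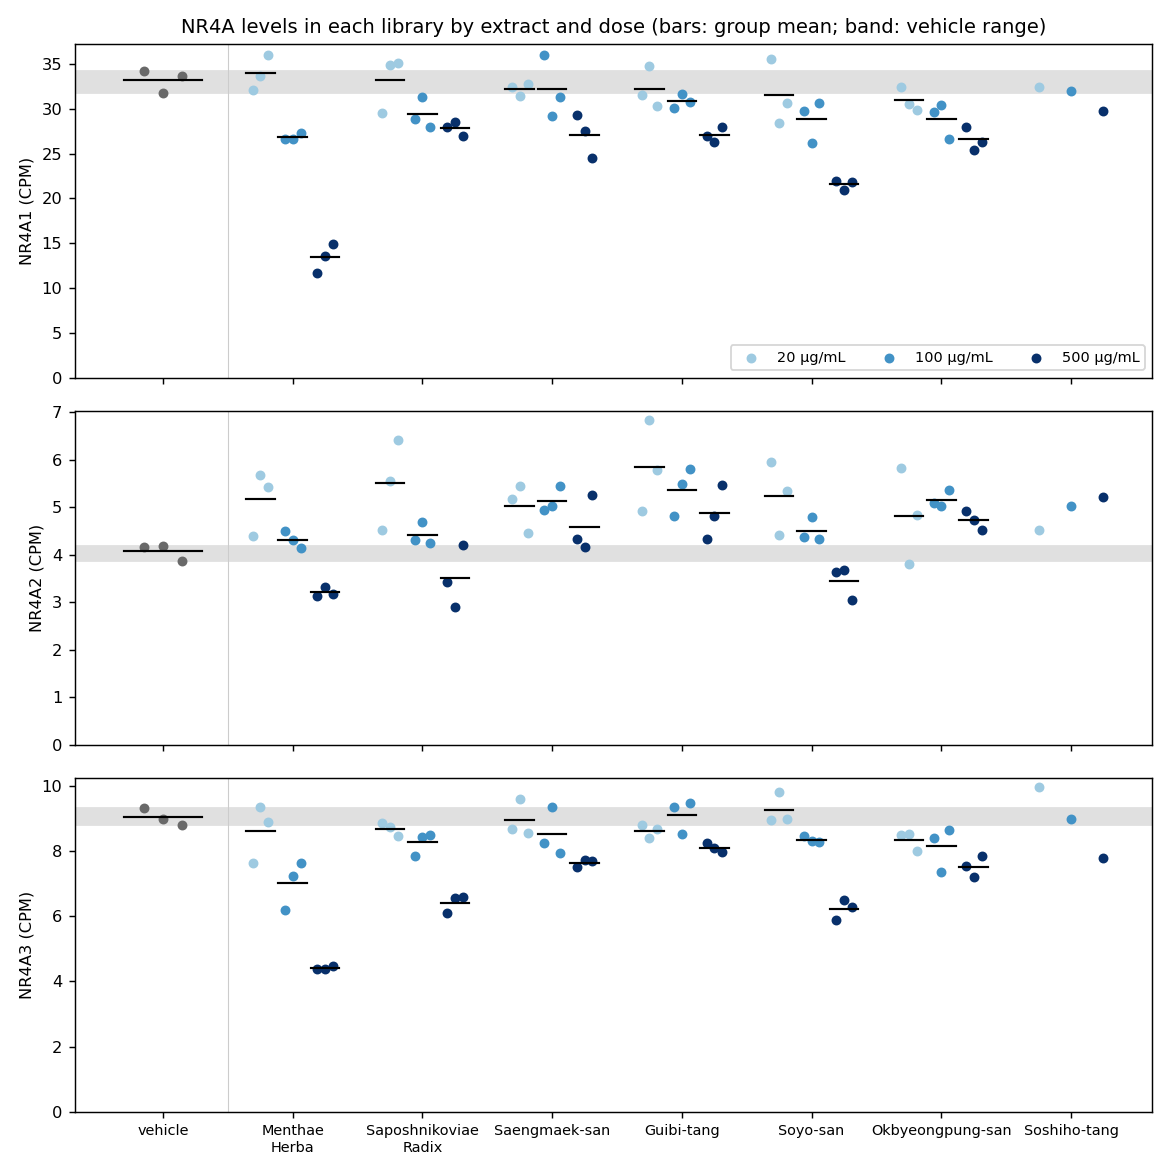
Level of NR4A1, NR4A2 and NR4A3 (CPM, vertical axes) in each of the 60 libraries, by extract and dose in µg/mL, with bars at group means and a grey band over the vehicle range. NR4A1 at Menthae Herba 500 (11.7 to 14.9 CPM) and NR4A3 there (4.38 to 4.45 CPM) lie apart from every other group, and NR4A2 shows smaller differences between groups.

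Saposhnikoviae Radix gave a different ranking of the 3 genes. NR4A1 was 28.0, 28.5 and 26.9 CPM at 500, 28.9, 31.4 and 28.0 CPM at 100 and 29.6, 34.9 and 35.1 CPM at 20. NR4A3 was 6.09, 6.55 and 6.58 CPM at 500, 7.85, 8.44 and 8.49 CPM at 100 and 8.86, 8.72 and 8.45 CPM at 20. NR4A2 was 3.43, 2.89 and 4.20 CPM at 500, 4.32, 4.68 and 4.25 CPM at 100 and 4.53, 5.56 and 6.42 CPM at 20. Each gene at 500 lay below its own 20 µg/mL libraries, which 4.22% of all genes tested did. The changes for 500 against 20 were −0.27 ± 0.0839, −0.46 ± 0.0722 and −0.65 ± 0.148 for NR4A1, NR4A3 and NR4A2 in turn. NR4A1 and NR4A3 at 500 also lay below vehicle (8.0% of genes did), with changes of −0.30 ± 0.0827 and −0.54 ± 0.0704, whereas NR4A2 overlapped vehicle.

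Among the decoctions, whose contrasts did not pick the genes, all 3 NR4A transcripts were lower with Soyo-san at 500 than at 20 µg/mL. Soyo-san is a mixture that contains mint. NR4A1 stood at 22.0, 20.9 and 21.8 CPM at 500, 29.7, 26.2 and 30.7 CPM at 100 and 35.5, 28.4 and 30.7 CPM at 20. NR4A3 stood at 5.89, 6.50 and 6.29 CPM at 500, 8.46, 8.29 and 8.26 CPM at 100 and 8.95, 9.79 and 8.99 CPM at 20. NR4A2 stood at 3.63, 3.68 and 3.04 CPM at 500, 4.37, 4.78 and 4.34 CPM at 100 and 5.95, 4.42 and 5.33 CPM at 20. For each gene the 3 libraries at 500 lay under the 6 at the lower doses, and 4.49% of all genes tested had 500 below 20 in this way. The NR4A2 level at 20 was itself above vehicle, by 0.41 on the log2 scale, and at 500 its change against vehicle was −0.20 ± 0.151.

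The 500-against-20 change with Soyo-san was −0.56 ± 0.0865 for NR4A1 (fold 0.680, edgeR quasi-likelihood test with Benjamini-Hochberg adjustment over all genes, adjusted p = 4.95e-05). It was −0.58 ± 0.0725 for NR4A3 (fold 0.670, edgeR adjusted p = 5.29e-07) and −0.61 ± 0.151 for NR4A2 (fold 0.656, edgeR adjusted p = 0.0403). All 3 were called, where 0.284% of the genes tested were called lower and 0.614% in either direction. The call for NR4A2 was lost when only the Soyo-san libraries at these doses were fitted (edgeR adjusted p = 0.204) and without any 1 of 5 of its 6 libraries (all at 500, and replicates 1 and 3 at 20). All Soyo-san libraries lay after the mitochondrial step, so this comparison does not cross it.

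With Guibi-tang only NR4A1 passed the test. It was 27.0, 26.3 and 27.9 CPM at 500, 30.1, 31.7 and 30.7 CPM at 100 and 31.5, 34.7 and 30.4 CPM at 20, with 500 below both other doses. The change was −0.32 ± 0.0853 (edgeR adjusted p = 0.0463), where 0.249% of genes were called lower and 1.95% had all libraries at 500 below those at 20. NR4A3 was 8.25, 8.09 and 7.96 CPM at 500, 9.35, 8.52 and 9.47 CPM at 100 and 8.79, 8.39 and 8.68 CPM at 20, also without overlap of 500 with the other doses (−0.16 ± 0.0713, edgeR adjusted p = 0.467). NR4A2 was 4.33, 4.81 and 5.46 CPM at 500, 4.81, 5.48 and 5.80 CPM at 100 and 4.92, 6.83 and 5.79 CPM at 20, and its groups overlapped (−0.33 ± 0.144, edgeR adjusted p = 0.386). The NR4A1 call was lost without Guibi-tang replicate 1 or 2 at 500 or replicate 2 at 20 (edgeR adjusted p = 0.184, 0.354 and 0.464). It was lost too with the mitochondrial step as a covariate (−0.28, edgeR adjusted p = 0.0694), which 2 of the 3 libraries at 500 and 1 of the 3 at 20 precede.

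Saengmaek-san and Okbyeongpung-san gave differences of the same sign that were smaller than those with Soyo-san. With Saengmaek-san NR4A1 was 29.4, 27.5 and 24.5 CPM at 500, 36.0, 29.2 and 31.4 CPM at 100 and 32.4, 31.4 and 32.7 CPM at 20. NR4A3 was 7.49, 7.74 and 7.69 CPM at 500, 8.24, 9.34 and 7.95 CPM at 100 and 8.68, 9.60 and 8.55 CPM at 20. For both genes 500 lay below 100, except for 1 NR4A1 library at 29.4 CPM, and below 20 (1.84% of genes tested did the latter). The changes for 500 against 20 were −0.26 ± 0.0844 for NR4A1 and −0.24 ± 0.0707 for NR4A3, with edgeR adjusted p = 1.0 for both (0.00367 and 0.00280 before adjustment). NR4A2 was 4.32, 4.17 and 5.26 CPM at 500, 4.95, 5.02 and 5.45 CPM at 100 and 5.17, 5.44 and 4.45 CPM at 20, with overlapping groups (−0.16 ± 0.146). In this comparison edgeR called 0 of 17256 genes (0.0%) and DESeq2 1, and 469 genes, 2 of them NR4A genes, had an unadjusted edgeR p under 0.05.

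With Okbyeongpung-san, a mixture that contains Saposhnikoviae Radix, NR4A1 was 28.0, 25.4 and 26.4 CPM at 500, 29.6, 30.5 and 26.6 CPM at 100 and 32.5, 30.6 and 29.9 CPM at 20. NR4A3 was 7.53, 7.18 and 7.84 CPM at 500, 8.40, 7.36 and 8.65 CPM at 100 and 8.48, 8.53 and 8.00 CPM at 20. Both lay lower at 500 than at 20 in every library (2.83% of genes did), with changes of −0.25 ± 0.0858 and −0.17 ± 0.0726. NR4A2 was 4.93, 4.73 and 4.51 CPM at 500, 5.09, 5.03 and 5.35 CPM at 100 and 5.82, 3.81 and 4.83 CPM at 20, with 500 inside the spread of 20 (−0.06 ± 0.148). By edgeR 0 of the 3 NR4A genes were called (adjusted p = 1.0 for each), against 0.0985% of all genes, 2 of the 3 had an unadjusted p under 0.05, and DESeq2 called 0.

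Libraries of NR4A1 and of NR4A3 at 500 lay below the same extract's libraries at 20 in each of the 6 extracts. Of 17256 genes tested, 3 did so (0.0174%), but the contrasts of the 2 herbs chose NR4A1 and NR4A3, so nothing is read from that count. In the 4 decoctions alone, whose contrasts did not pick them, the count was also 3 (0.0174%), and these were the same 3 genes. NR4A1 and NR4A3 were chosen with earlier results of these data known, so this count too is a description. The other gene was DIO2, the deiodinase that turns thyroxine into active thyroid hormone, which is named here after its values were seen. At 100 against 20 the separation held in 1 extract for NR4A1 (Menthae Herba, 4.39% of genes) and in 2 for NR4A3 (Menthae Herba, and Soyo-san, where 3.03% of genes did so). NR4A2 at 500 lay below its libraries at 20 in 3 extracts, Menthae Herba, Saposhnikoviae Radix and Soyo-san.

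**Figure D2:**
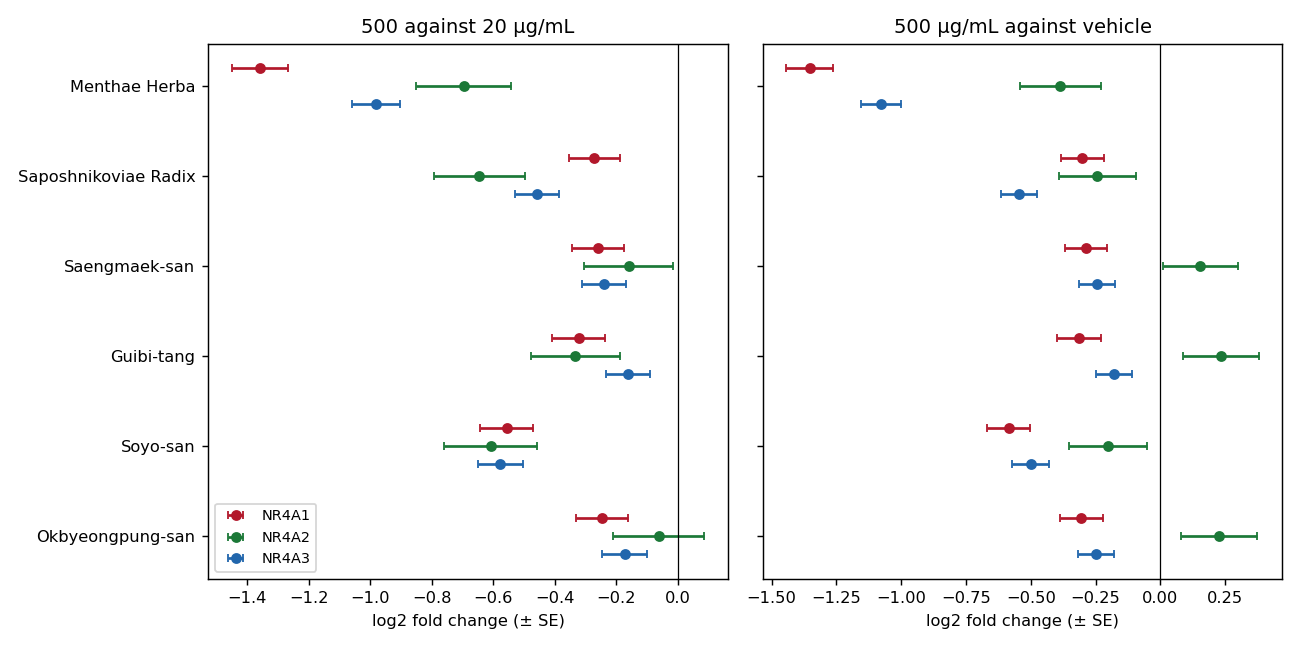
Log2 fold change ± SE of the 3 NR4A genes in each of the 6 extracts with 3 libraries per dose, 500 against 20 µg/mL on the left and 500 against vehicle on the right. NR4A1 and NR4A3 lie below 0 for each extract in both panels, with Menthae Herba the lowest, while NR4A2 lies below 0 against 20 and between −0.39 and 0.23 against vehicle.

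Tested as a difference between extracts that share a library-name set, the 500-against-20 change with Soyo-san differed from that with Okbyeongpung-san by −0.31 ± 0.122 for NR4A1, −0.55 ± 0.211 for NR4A2 and −0.40 ± 0.103 for NR4A3. By edgeR 0 of these 3 were called after adjustment over all genes (adjusted p = 0.922, 0.899 and 0.690), where 0.029% of genes were. Before adjustment edgeR gave 0.0145, 0.0131 and 0.0011, all under 0.05, and DESeq2 called 0. The 95% intervals of the difference ran from −0.55 to −0.07, from −0.96 to −0.13 and from −0.60 to −0.20. Between Saengmaek-san and Guibi-tang the differences were 0.06 ± 0.120, 0.17 ± 0.205 and −0.08 ± 0.100. Here edgeR called 0 of 3 against 0.296% of genes, 0 had an unadjusted p under 0.05 and DESeq2 called 0, with intervals from −0.17 to 0.30, from −0.23 to 0.57 and from −0.27 to 0.12. The NR4A3 intervals of both differences are too narrow, since its SE lies below counting error.

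Set beside vehicle, the 3 genes differed in where they began. The comparisons below share the 3 vehicle libraries and are descriptions. Since no extract shares the library-name set of vehicle, the set and these differences cannot be told apart. At 20 µg/mL NR4A1 was within −0.06 to 0.01 of vehicle and NR4A3 within −0.10 to 0.08 on the log2 scale. All NR4A3 libraries at 20 nonetheless lay below all vehicle libraries with Guibi-tang (15.6% of genes did) and Okbyeongpung-san (19.9%). Scaled to the total without mitochondrially encoded genes, Guibi-tang (10.2 to 10.4 CPM) overlapped vehicle (10.1 to 10.6 CPM), while Okbyeongpung-san stayed below it. NR4A2 at 20 was above vehicle by 0.31 with Menthae Herba, 0.40 with Saposhnikoviae Radix, 0.31 with Saengmaek-san, 0.57 with Guibi-tang, 0.41 with Soyo-san and 0.29 with Okbyeongpung-san. Its libraries at 20 all lay above all vehicle libraries except with Okbyeongpung-san, where 1 of 3 lay under them. Over all genes the share so placed at 20 was 16.7% with Menthae Herba, 17.9% with Saposhnikoviae Radix, 5.86% with Saengmaek-san, 5.45% with Guibi-tang and 9.08% with Soyo-san.

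At 500 µg/mL against vehicle NR4A2 was −0.39 ± 0.155 with Menthae Herba, −0.24 ± 0.149 with Saposhnikoviae Radix and −0.20 ± 0.151 with Soyo-san. It was 0.15 ± 0.145 with Saengmaek-san, 0.23 ± 0.146 with Guibi-tang and 0.23 ± 0.145 with Okbyeongpung-san. In CPM of the library total its libraries lay under vehicle with Menthae Herba and with Soyo-san (20.0% of genes did there). They lay above vehicle with Guibi-tang (11.9%) and Okbyeongpung-san (13.6%). Scaled to the total without mitochondrially encoded genes, Soyo-san (3.58 to 4.50 CPM) overlapped vehicle (4.42 to 4.78 CPM), while Menthae Herba, Guibi-tang and Okbyeongpung-san stayed separate from it. With the mitochondrial step as a covariate the Okbyeongpung-san value changed sign, to −0.08, and that of Soyo-san moved to −0.51. NR4A1 at 500 against vehicle was −0.29 ± 0.0826 with Saengmaek-san, −0.31 ± 0.0839 with Guibi-tang, −0.59 ± 0.0847 with Soyo-san and −0.31 ± 0.0833 with Okbyeongpung-san. NR4A3 was −0.24, −0.18, −0.50 and −0.25 in that order. The 3 libraries of each of these groups lay below vehicle for both genes, where 5.56, 7.34, 20.0 and 19.1% of all genes did.

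Ordered by mean level over the 19 groups of 3 libraries, NR4A1 ran from 13.4 ± 1.59 CPM (SD, n = 3) at Menthae Herba 500 through 21.6 ± 0.588 CPM at Soyo-san 500 and 26.6 ± 1.3 CPM at Okbyeongpung-san 500 up to 33.2 ± 1.23 CPM in vehicle and 34.0 ± 1.95 CPM at Menthae Herba 20. The first 3 of these did not overlap one another, and the other 16 neighbouring pairs of the order did. NR4A3 began with Menthae Herba 500 (4.40 ± 0.0435 CPM), apart from the next, Soyo-san 500 (6.23 ± 0.311 CPM), which overlapped Saposhnikoviae Radix 500 (6.40 ± 0.277 CPM). Only Saengmaek-san 500 (7.64 ± 0.129 CPM) and Guibi-tang 500 (8.10 ± 0.143 CPM) were otherwise separate neighbours, and vehicle (9.04 ± 0.269 CPM) was number 17 of 19. For NR4A2 0 of 18 neighbouring pairs were separate, from 3.21 ± 0.0926 CPM at Menthae Herba 500 to 5.85 ± 0.955 CPM at Guibi-tang 20, with vehicle (4.08 ± 0.178 CPM) number 4 of 19.

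Soshiho-tang, with 1 library per dose, gives values with no replicate check. NR4A1 was 29.7, 32.0 and 32.4 CPM at 500, 100 and 20 µg/mL, with an exact 95% counting interval of 27.6 to 32.1 CPM at 500 and 30.1 to 34.9 CPM at 20. NR4A3 was 7.77, 8.98 and 9.95 CPM. NR4A2 was 5.21, 5.02 and 4.53 CPM. The intervals (Clopper-Pearson) cover counting error only. Those at 500 and 20 overlapped for each of the 3 genes, but overlap of separate intervals is not a comparison of the values. Whether a difference between 500 and 20, such as 7.77 against 9.95 CPM for NR4A3, exceeds counting error was not tested.

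**Figure D3:**
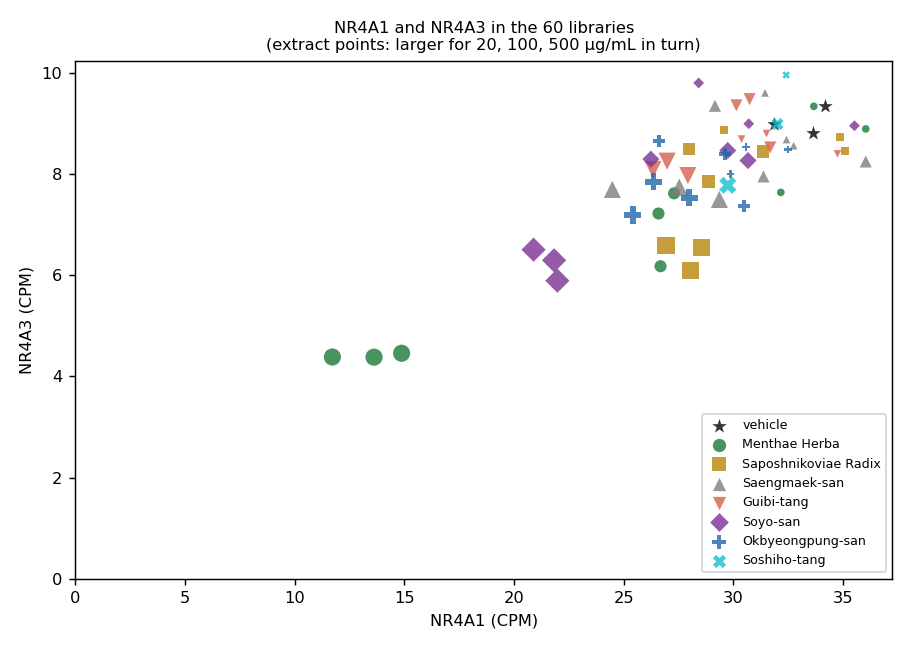
NR4A3 against NR4A1 level (CPM on both axes) in the 60 libraries, coloured by extract, with larger markers for higher doses. The 3 Menthae Herba libraries at 500 µg/mL lie alone at the low corner, the 3 of Soyo-san at 500 lie between them and the main cloud, and vehicle lies in its upper part.

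Across the 54 libraries of the 6 replicated extracts, after subtraction of the mean of the 18 libraries that share a first number in the library name, log2 CPM of NR4A1 and NR4A3 had a Pearson r of 0.86, NR4A2 and NR4A3 0.69 and NR4A1 and NR4A2 0.66. The libraries share doses, extracts and depth, so r is a description. Without the 3 Menthae Herba libraries at 500, an alternative chosen after the data were seen, these were 0.67, 0.62 and 0.64. Among 10641 genes that averaged at least 5 CPM, NR4A3 ranked number 4 for likeness to NR4A1. Ahead of it were IGFBP5, which encodes an insulin-like growth factor binding protein (r = 0.90), DIO2 (0.88) and the neuronal pentraxin gene NPTX1 (0.86), and the plakoglobin gene JUP (0.85) and the matricellular gene SMOC1 (0.84) followed. NR4A3 was most like DIO2 (0.90), IGFBP5 (0.87), SMOC1 (0.87), NPTX1 (0.86), NR4A1 (0.86) and the scaffold gene NEDD9 (0.83). NR4A2 was most like the growth factor gene BMP6 (0.75), IGFBP5 (0.72), JUP (0.72), the clock repressor gene BHLHE40 (0.71), the stanniocalcin gene STC1 (0.69) and NR4A3 (0.69). These lists change with the libraries and the centring: of the 6 genes named for NR4A1, NR4A2 and NR4A3, 3, 5 and 4 stayed among the first 6 without the Menthae Herba libraries at 500, 4, 3 and 5 when each side of the mitochondrial step was also centred, and 4 each without centring.

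The levels of the genes most like the NR4A genes are given as a description. With Menthae Herba IGFBP5 was 11.2 ± 0.564 CPM (SD, n = 3) at 500 and 20.1 ± 0.964 CPM at 20, a change of −0.86 ± 0.0803. DIO2 was 53.5 ± 0.527 CPM and 82.9 ± 3.06 CPM, a change of −0.65 ± 0.0410. With Soyo-san IGFBP5 was 13.4 ± 0.546 CPM at 500 and 18.7 ± 0.400 CPM at 20, and DIO2 65.4 ± 1.79 and 79.9 ± 1.04 CPM. BMP6 was 10.5 ± 0.381 CPM with Menthae Herba at 500, 14.7 ± 1.02 CPM at 20 and 16.1 ± 1.47 CPM in vehicle. These genes were selected on the same libraries, so their changes carry no test here.

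The other genes of the pathway were followed as 5 lists, of which 105 of 133 genes passed the filter: 33 of 45 other nuclear receptors, 21 of 22 genes that carry signals to NR4A promoters (kinases, calcineurin, CREB, MEF2 and SRF), 12 of 16 cAMP and CREB targets, 28 of 31 immediate early genes and 12 of 20 reported NR4A targets. SRF is in both the signal and the immediate early list. Most of the 105 did not pass the test between 20 and 500, and nor did most genes of the whole fit. With Menthae Herba 25.7% of the 105 had an unadjusted edgeR p under 0.05, against 11.4% of all genes. With Menthae Herba at 500 against 20, 3 of the 105 rose and 9 fell (edgeR, adjusted p under 0.05), where 2.43% of all genes were called. Their median log2 change was −0.02, against 0.00 over all genes.

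Among nuclear receptors, 2 rose and 1 fell with Menthae Herba, with a list median of 0.00. NR1D2, a heme-sensing repressor of the clock, rose by 0.35 ± 0.0672 (edgeR adjusted p = 5.46e-04), and NR5A2, a regulator of bile acid and steroid genes, by 0.34 ± 0.0676 (edgeR adjusted p = 8.02e-04). HNF4A, a hepatocyte and gut factor that A549 cells express, fell, with a change of −0.27 ± 0.0393 (edgeR adjusted p = 4.54e-06). RXRA, a dimer partner of NR4A1 and NR4A2, had a value of 0.08 and was not called. Of the genes that carry signals to the promoters 0 of 21 were called by edgeR, with 3 at an unadjusted p under 0.05 and 1 called by DESeq2.

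Among cAMP and CREB targets 1 of 12 was called with Menthae Herba, the G protein signalling regulator RGS2 (−0.42 ± 0.102, edgeR adjusted p = 0.0112). Of the 12 values 10 lay below 0, with a median of −0.11 against −0.001 over all genes. The genes were measured in the same libraries, and the count of signs carries no test. CREM (−0.18) and PER1 (−0.11), further CREB targets, were not called. Of the immediate early genes 4 of 28 fell and 0 rose. FOS, a subunit of AP-1, went from 4.23 ± 0.0169 CPM at 20 to 2.78 ± 0.434 CPM at 500 (−0.62 ± 0.132, edgeR adjusted p = 0.00247), with vehicle at 3.61 ± 0.467 CPM. DUSP5 (−0.28) and DUSP1 (−0.27), phosphatases that switch off MAP kinases, and FOSL2 (−0.19), another AP-1 subunit, fell as well, with edgeR adjusted p = 2.57e-05, 0.00350 and 0.00159. EGR1 was low (0.540 to 2.00 CPM over the 60 libraries) and was not called, with a value of 0.18.

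Of the reported NR4A targets 3 of 12 fell and 1 rose. PDK4, a kinase that shuts pyruvate out of the citric acid cycle, went from 33.4 ± 1.99 to 25.6 ± 0.496 CPM (−0.40 ± 0.0837, edgeR adjusted p = 0.00176). CCND1, the cyclin of early G1, went from 431 ± 9.70 to 376 ± 0.803 CPM (−0.21 ± 0.0318, edgeR adjusted p = 1.18e-05), and the integrin gene ITGB1 changed by −0.15 (edgeR adjusted p = 0.00117). LPIN1, a phosphatidate phosphatase of lipid synthesis, rose by 0.25 ± 0.0393 (edgeR adjusted p = 2.49e-05).

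With Soyo-san 3 of the 105 fell between 20 and 500 and 0 rose, where 0.614% of all genes were called. These were the calcineurin catalytic gene PPP3CA (−0.15 ± 0.0353, edgeR adjusted p = 0.0234), KLF4 (−0.37 ± 0.0915, edgeR adjusted p = 0.0407), an immediate early zinc finger factor, and CCND1 (−0.15 ± 0.0318, edgeR adjusted p = 0.00804). The count over the lists was 0 in a fit of only the Soyo-san libraries at these doses, 1 without the filter on low counts and 1 to 2 with 1 library left out. KLF4 stood at 6.28 ± 0.719 CPM at 500 and 8.06 ± 0.491 CPM at 20. Of the cAMP and CREB targets 0 of 12 were called by edgeR or DESeq2, and 2 had an unadjusted edgeR p under 0.05. Below 0 lay 11, with a median of −0.07 against 0.002 over all genes, and the count of signs carries no test.

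Guibi-tang changed 5 of the 105 genes between 20 and 500, where 0.997% of all genes were called. PPP3CA (−0.16), RGS2 (−0.38), CCN1 (−0.25) and CCND1 (−0.13) fell and KLF6 rose by 0.20, with edgeR adjusted p = 0.00693, 0.0437, 0.00716, 0.0249 and 0.00158 in turn. In a fit of only these Guibi-tang libraries the count was 0, and with 1 library left out it was 2 to 5. CCN1 encodes a matrix protein induced by growth factors and KLF6 a zinc finger factor. With Saposhnikoviae Radix, Saengmaek-san and Okbyeongpung-san edgeR called 0 of the 105, where 0.0811, 0.0 and 0.0985% of all genes were called. At an unadjusted edgeR p under 0.05 there were 8, 2 and 6, and DESeq2 called 1, 0 and 0.

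**Figure D4:**
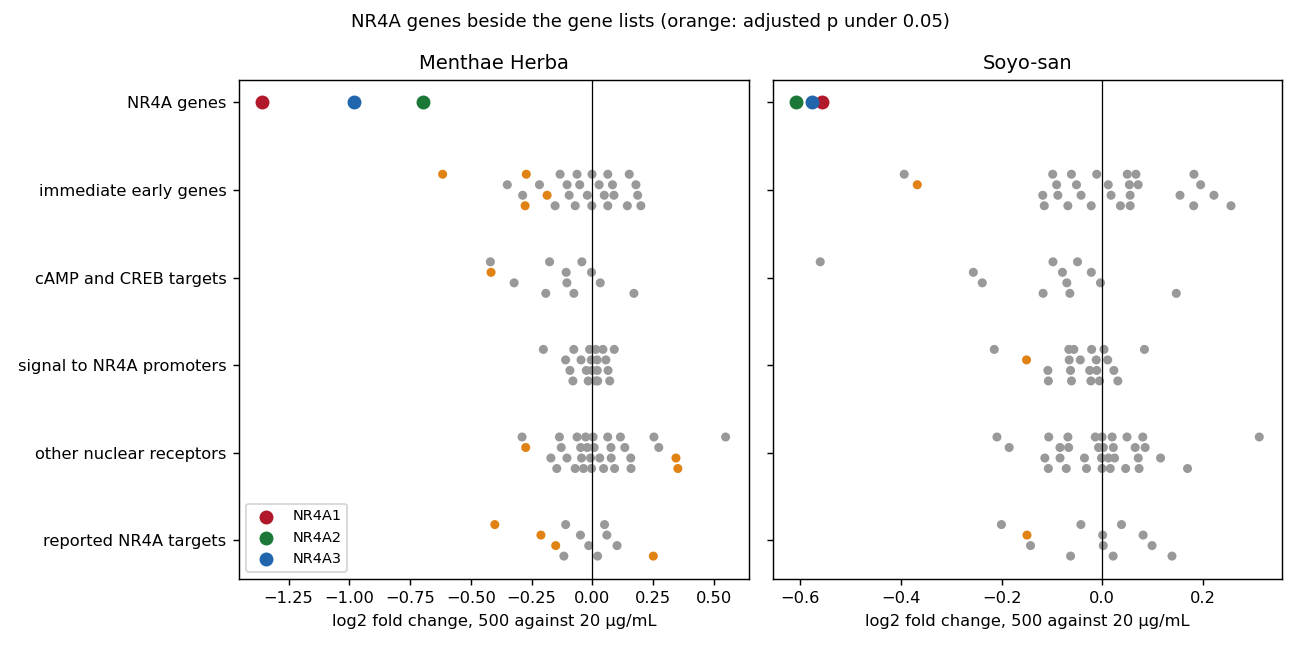
Log2 fold change for 500 against 20 µg/mL of the 3 NR4A genes and of each tested gene of the 5 lists, with Menthae Herba on the left and Soyo-san on the right; orange points have an adjusted p under 0.05 (edgeR). The horizontal scales differ between the panels, and the list genes lie mostly around 0 in both, with 12 of 105 called for Menthae Herba and 3 of 105 for Soyo-san.

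Against vehicle at 500 more of the 105 passed the test: 24 with Menthae Herba (6 higher, 18 lower), 8 with Saposhnikoviae Radix (2 and 6), 8 with Saengmaek-san (3 and 5), 16 with Guibi-tang (6 and 10), 24 with Soyo-san (10 and 14) and 15 with Okbyeongpung-san (7 and 8). The shares of all genes called were 6.77, 1.56, 0.614, 4.42, 6.03 and 3.39% in that order, and the comparisons share the vehicle libraries. Vehicle has a library-name set of its own, so the set and the differences cannot be told apart. CCND1 changed by −0.28, −0.19, −0.15, −0.25, −0.26 and −0.17 in these 6 comparisons. KLF2, an immediate early factor of the endothelium and T cells, rose by 0.62, 0.66, 0.84, 0.85, 1.07 and 0.82, and it was not called between 20 and 500 in any extract. DUSP5 fell with Menthae Herba by 0.42 and with Soyo-san by 0.34 on the log2 scale. With Menthae Herba the retinoic acid receptor genes RARA (−0.36) and RARB (−0.29), the protein kinase A catalytic gene PRKACA (−0.27), MEF2D (−0.24) and KLF4 (−0.56) fell as well. With Soyo-san the vitamin D receptor gene VDR (0.45), JUN (0.25), JUNB (0.28) and KLF10 (0.40) rose.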

How the data were processed

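A549 cells were sequenced in 60 libraries. Per the submitters' processing notes, reads were handled with FastQC 0.11.9, Trim Galore 0.6.5, STAR 2.7.3a and RSEM 1.3.3 on hg38 (GRCh38). The authors deposited RSEM expected counts, of which 10.5% were not whole, for 60675 genes. The annotation release and strand setting are not given in the sources used here, and 0 columns of per-sample values were left unused.

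Expected counts were rounded and fitted in edgeR 4.0.16 (R 4.3.3, limma 3.58.1; TMM, filterByExpr, quasi-likelihood test) over 57 libraries in 19 groups, with 38 residual degrees of freedom and 17256 genes tested. Soshiho-tang, with 1 library per dose, was left out of the fit. Levels are CPM of the library total, and log2 CPM used a prior count of 2. Each SE was taken from the quasi-likelihood statistic. Calls are at a Benjamini-Hochberg adjusted p under 0.05 over all genes of a comparison. The scripts were tested on simulated data. edgeR bounds a p-value by Poisson counting, so the p of NR4A3 is larger than its standard error alone would give.

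The NR4A genes and the lists were chosen with earlier results of these data known. Genes named are the 3 NR4A genes, for each the 6 genes of highest Pearson r among those with 5 CPM or more on average, and of each list up to 4 called genes with the largest change per comparison, from which ends of the ranking were dropped. In the vehicle comparisons, genes were picked from this set after their values were seen. Gene names came from a table of human gene names (56558 genes) and GENCODE 29 (497), and promoters from RefSeq. Alternatives were DESeq2 1.42.0, its size factors, no filter, only the groups compared, the replicate number as a block, the mitochondrial step as a covariate and leaving out each library.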

Additional observations from a re-analysis of the deposited data

Results flagged for a closer look

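NR4A2 at 500 µg/mL stood on opposite sides of vehicle in different extracts. In CPM of the library total, all libraries lay below all vehicle libraries with Menthae Herba (mean 3.21 CPM) and Soyo-san (3.45 CPM). All lay above them with Guibi-tang (4.87 CPM) and Okbyeongpung-san (4.72 CPM). Over all genes tested, 10.7 and 20.0% lay below vehicle in this way with Menthae Herba and Soyo-san, and 11.9 and 13.6% above it with Guibi-tang and Okbyeongpung-san. The vehicle mean was 4.08 ± 0.178 CPM (SD, n = 3). Scaled to the total without mitochondrially encoded genes, Soyo-san (3.58 to 4.50 CPM) overlapped vehicle (4.42 to 4.78 CPM). Menthae Herba, Guibi-tang and Okbyeongpung-san stayed separate from vehicle on that scale. The log2 changes against vehicle were −0.39 ± 0.155 (SE) with Menthae Herba, −0.20 ± 0.151 with Soyo-san, 0.23 ± 0.146 with Guibi-tang and 0.23 ± 0.145 with Okbyeongpung-san. The difference between extracts on these opposite sides was not tested. With the mitochondrial step as a covariate the Okbyeongpung-san value was −0.08 in place of 0.23 on the log2 scale, and the vehicle libraries are common to all of these comparisons.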

How the results depend on the processing

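Of the NR4A changes with the 4 decoctions and the 2 differences between extracts, edgeR called only the 3 with Soyo-san and NR4A1 with Guibi-tang. The other results had no call to lose, so the totals below do not measure how stable the calls were. Under other settings 105 values kept their side of the threshold and their direction, and 3 lost a call. These were NR4A1 with Guibi-tang with the step as a covariate (−0.28) and in a fit of only the groups compared (−0.32), and NR4A2 with Soyo-san in the latter fit (−0.61). Outside these, NR4A2 at Okbyeongpung-san 500 against vehicle reversed, to −0.081, with the step covariate. With each library left out in turn, 134 were kept, 8 lost their call and 2 reversed: NR4A2 with Okbyeongpung-san without replicate 1 at 20 (0.089), and the NR4A1 difference between Saengmaek-san and Guibi-tang without Guibi-tang replicate 2 at 20 (−0.024). The cause of these changes was not tested.

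Left-out libraries gave, for 500 against 20 and for NR4A1, NR4A2 and NR4A3 in turn, −0.61 to −0.46, −0.70 to −0.50 and −0.61 to −0.52 with Soyo-san. The ranges were −0.39 to −0.24, −0.47 to −0.18 and −0.19 to −0.13 with Guibi-tang, and −0.30 to −0.20, −0.30 to −0.07 and −0.29 to −0.21 with Saengmaek-san. With Okbyeongpung-san they were −0.28 to −0.21, −0.21 to 0.089 and −0.21 to −0.14. The Soyo-san to Okbyeongpung-san difference ranged over −0.36 to −0.21, −0.70 to −0.40 and −0.44 to −0.34, and that of Saengmaek-san to Guibi-tang over −0.024 to 0.13, 0.02 to 0.31 and −0.12 to −0.05.

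The number of list genes called moved with the setting. In a fit of only the groups compared it was, for 500 against 20, 21 with Menthae Herba (12 in the fit of all groups), 1 with Saposhnikoviae Radix (0), 0 with Guibi-tang (5) and 0 with Soyo-san (3). Against vehicle it was 30 with Saposhnikoviae Radix (8), 0 with Saengmaek-san (8), 8 with Guibi-tang (16) and 35 with Okbyeongpung-san (15). With the step covariate it was 1 and 18 for Saposhnikoviae Radix against 20 and vehicle, and 14 and 23 against vehicle for Saengmaek-san and Okbyeongpung-san. Without the filter Soyo-san gave 1, and DESeq2 gave 1 for Saposhnikoviae Radix against 20. Left-out libraries gave 10 to 12 calls with Menthae Herba, 0 to 0 with Saposhnikoviae Radix, Saengmaek-san and Okbyeongpung-san, 2 to 5 with Guibi-tang and 1 to 2 with Soyo-san against 20. Against vehicle they gave 14 to 23, 4 to 7, 2 to 6, 9 to 11, 10 to 14 and 15 to 19 in the same order.

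Over all 17256 genes the main counts for 500 against 20 (420 with Menthae Herba, 14 with Saposhnikoviae Radix, 0 with Saengmaek-san, 172 with Guibi-tang, 106 with Soyo-san and 17 with Okbyeongpung-san) became 887, 35, 0, 14, 34 and 16 in the fit of only the groups compared, 452, 101, 53, 416, 177 and 93 without the filter and 715, 27, 0, 207, 184 and 25 with the step covariate. DESeq2 gave 22 with Saposhnikoviae Radix and 1 with Saengmaek-san. Against vehicle they were 1169, 270, 106, 762, 1041 and 585, which became 3023, 2217, 0, 242, 2132 and 2854 with only the groups compared, 2099, 1001, 376, 1725, 2014 and 2154 with the step covariate. Without the filter Saposhnikoviae Radix and Saengmaek-san gave 551 and 187, and DESeq2 gave 408 for Saposhnikoviae Radix. The Saengmaek-san to Guibi-tang difference had 51 calls (157 without the filter, 5 with only the groups compared, 77 with the step covariate) and that of Soyo-san to Okbyeongpung-san 5 (78, 2 and 6).

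Replicate numbers were not taken to pair the samples, since not every pair of same-numbered libraries correlated above 0.1. Deviations of same-numbered libraries correlated at −0.06 to 0.05, −0.24 to 0.38 and −0.07 to 0.23 in library-name sets 5, 6 and 7. Their medians were −0.01, 0.14 and 0.01, against 0.004, −0.12 and −0.004 between libraries of other numbers. In the same order, 2, 13 and 11 of 18 libraries correlated best with their own number. Whether libraries in sets 6 and 7, which hold the tested decoctions, share an effect of replicate number was not tested. With the replicate block the Soyo-san changes were −0.55, −0.60 and −0.58 and that of NR4A1 with Guibi-tang −0.32, all still called. The block gave 1 list call with Saposhnikoviae Radix against 20 and 13 against vehicle. Over all genes it gave 593, 21, 2, 287, 154 and 21 calls for 500 against 20 and 1639, 600, 218, 1139, 1798 and 1055 against vehicle, in the order of extracts above.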

Other observations

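Some immediate early genes outside the NR4A group had levels away from vehicle at 500 and at 20 µg/mL alike. No extract shares the library-name set of vehicle, so the set and these differences cannot be told apart. The comparisons share the 3 vehicle libraries, in which KLF2 was 5.72 ± 0.588 CPM (SD, n = 3), BTG2 11.4 ± 0.544 CPM and CCN1 34.5 ± 1.81 CPM. KLF2 was 9.05 ± 0.267 CPM with Menthae Herba at 500 and 9.63 ± 0.310 CPM at 20, and 11.7 ± 0.525 CPM with Soyo-san at 500 and 11.4 ± 0.498 CPM at 20. BTG2, an antiproliferative gene, was 7.35 ± 0.530 CPM with Soyo-san at 500 and 7.04 ± 0.464 CPM at 20, and 7.82 ± 0.511 CPM with Guibi-tang at 500 and 7.21 ± 0.776 CPM at 20. Against vehicle BTG2 at 500 changed by −0.60 ± 0.103 with Soyo-san (edgeR adjusted p = 1.15e-04) and by −0.57 ± 0.103 with Guibi-tang (edgeR adjusted p = 2.32e-04). CCN1 was 24.6 ± 1.11 CPM with Guibi-tang at 500 and 27.7 ± 0.460 CPM at 20. With Menthae Herba, CCN1 was 33.2 ± 0.968 CPM at 500 and 31.0 ± 1.72 CPM at 20, whereas NR4A1 was 13.4 and 34.0 CPM in these groups.

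BDNF, a neurotrophin gene and CREB target, differed from vehicle at 500 by −0.24 with Menthae Herba, −0.23 with Saposhnikoviae Radix, −0.26 with Guibi-tang and −0.23 with Soyo-san. PPP3CA differed by −0.20, −0.15, −0.21 and −0.18 in these groups. All 8 values had an edgeR adjusted p under 0.05. The values with Saengmaek-san and Okbyeongpung-san are not given here. Against vehicle, edgeR and DESeq2 called 0 of the 21 genes that carry signals to the promoters, PPP3CA among them, with either of these extracts. In turn, 1 and 4 of the 21 had an unadjusted edgeR p under 0.05. In all of these groups the library-name set of vehicle and the difference cannot be told apart. Soyo-san also lay after the mitochondrial step and vehicle before it, so for that extract the step cannot be told apart either.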
